A study of Homo sapiens with 6 samples.

Results

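The surface proteins by which human embryonic stem cells are identified were followed through 9 of their genes in H1 cells after an shRNA against HERVH: PODXL, PROM1, CD24, CD9, ALPL, GPC4, ITGA6, CD44 and NCAM1. Their probes were taken by name, as every probe of the array whose gene name equals one of these symbols, which gave 19 probes of 9 genes among 47230 probes with 31334 gene names. HERVH is an endogenous retrovirus family that is strongly transcribed in pluripotent human cells, and the comparison addresses which genes change when it is depleted. The 2 groups of 3 samples were the same H1 line at passage 32, grown without feeder cells on Matrigel in conditioned medium with basic fibroblast growth factor, dissociated with trypsin and transfected on the following day with 2 µg of a pSUPER plasmid. The plasmid carried a Luciferase shRNA in the group called control shRNA and an shRNA against HERVH in the group called HERVH shRNA, and RNA was taken 5 days after transfection. The labels give 1 cell line, 1 time point and 1 control hairpin, and mention no selection of transfected cells.

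The surface of a human embryonic stem cell carries glycoproteins, proteoglycans and adhesion receptors by which the cells are sorted and which tie them to laminin, hyaluronan and growth factors. Podocalyxin, the product of PODXL, is a sialomucin that carries the TRA-1-60 and TRA-1-81 carbohydrate epitopes. ALPL encodes the tissue-nonspecific alkaline phosphatase behind the classical enzyme stain of these cells, and CD9 and CD24 are commonly used as surface antigens of the undifferentiated state. CD44 and NCAM1 also mark mesenchymal and neural cells.

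With HERVH shRNA, probes of 6 of the 9 genes rose (PODXL, PROM1, ALPL, GPC4, CD44 and ITGA6) and probes of 2 fell (CD24 and CD9), while no probe of NCAM1 passed the test. Signals are linear array intensities in arbitrary units, and changes are log2 fold changes of HERVH shRNA over control shRNA, positive where the signal was higher with HERVH shRNA. Of the 19 probes, 9 were called at an adjusted p below 0.05 in limma, with Benjamini-Hochberg adjustment over all 47230 probes. Of these 9, 7 were higher and 2 were lower. Over the whole array, 26.6% of probes were called, 13.4% higher and 13.2% lower. All 9 called probes were among the 12 surface marker probes whose mean signal lay above that of the median probe, and 48.6% of all such brighter probes on the array were called. The other 7 surface marker probes lay at or below the median probe and none of them was called in limma, nor did any have an unadjusted p below 0.05 (0 of 7). The median change over the 19 probes was 0.11, beside 0.05 over all probes of the array.

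The 6 arrays resembled each other closely within a group. The Pearson correlation of log2 signals over all probes was 0.994 to 0.995 within groups and 0.968 to 0.972 between groups, across probes that are not independent. The array medians lay between 71.2 and 73.8. Detection p-values were not used here, so a signal near those medians is given as a value without a statement on whether the transcript was present. No signal was below 28.9, a floor that any background left in the values would give, so the fold changes of dim probes may understate the change in RNA. No probe was named HERVH or HERV-H (0 of 47230), so depletion of the shRNA target itself was not measured by name. The labels do not say whether the replicates came from separate cultures, and p-values therefore measure the spread between these samples, which may be technical. In RNA from whole cultures, fewer cells with a marker and less of its RNA per cell cannot be told apart.

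**Figure D1:**
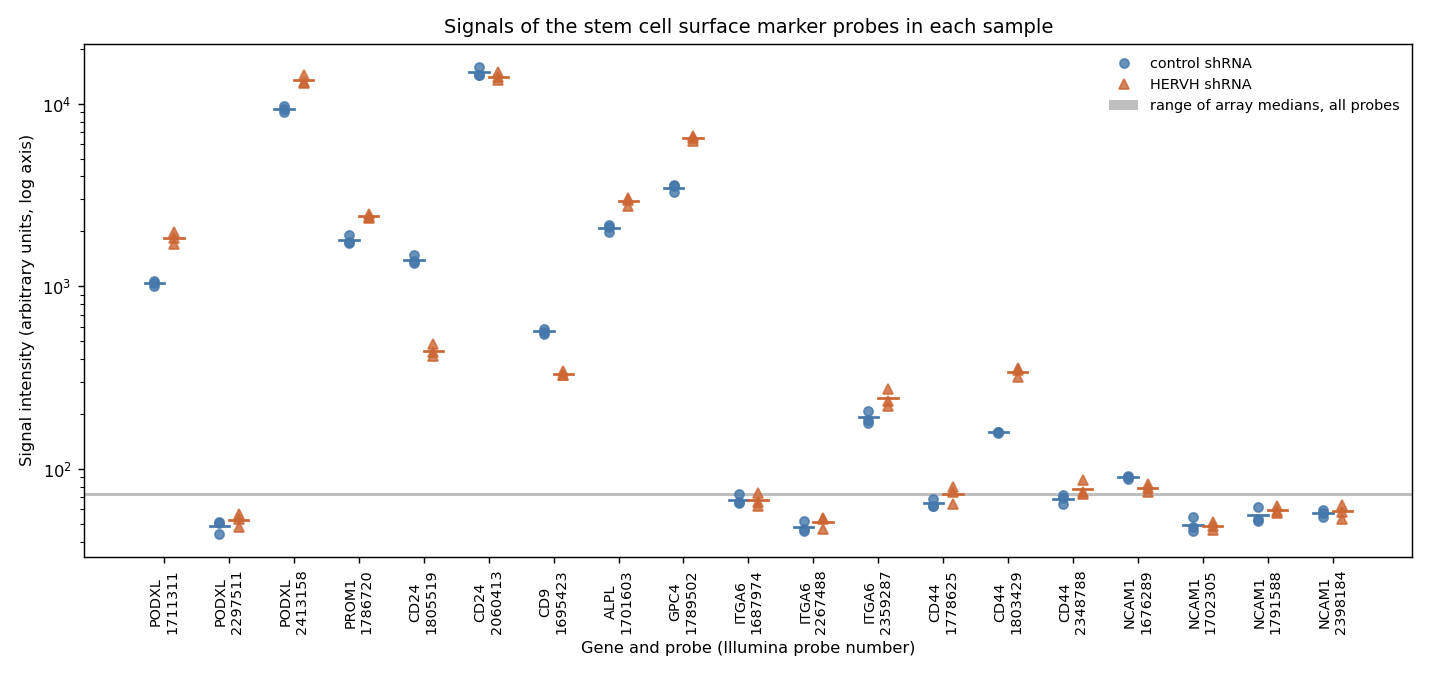
Signal of each of the 19 probes (arbitrary units, log axis) in the 3 control shRNA samples (circles) and the 3 HERVH shRNA samples (triangles), with short lines at the group means and a grey band at the range of array medians, 71.2 to 73.8. Signals of CD24 ILMN_1805519 and of CD9 are lower in all 3 HERVH shRNA samples, and those of GPC4, PROM1, ALPL, 2 PODXL probes, CD44 ILMN_1803429 and ITGA6 ILMN_2359287 are higher in all 3.

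The promoter windows of 2 genes with a probe that rose (GPC4 and CD44) and 2 with a probe that fell (CD24 and CD9) are shown. These probes moved in opposite directions with the same shRNA. For CD24 this was 1 of 2 probes, and for CD44 it was 1 of 3. RefSeq windows of build GRCh38.p14, from 250 bases before to 50 bases after a transcript start, were at hand for 7 of the 9 genes (18 windows, since most genes have several starts), and PODXL and NCAM1 had none. GPC4 (chrX:133415440-133415739, minus strand) and CD44 (chr11:35138921-35139220, plus strand) have a single window each. For CD24 the first listed window is given (chr6:106975578-106975877, minus strand), and for CD9 the one with the most matches (chr12:6200150-6200449, plus strand). Capitals mark the letters GGGCGG or CCGCCC, the GC box known to bind SP1-family factors, read 5′ to 3′.
GPC4 promoter: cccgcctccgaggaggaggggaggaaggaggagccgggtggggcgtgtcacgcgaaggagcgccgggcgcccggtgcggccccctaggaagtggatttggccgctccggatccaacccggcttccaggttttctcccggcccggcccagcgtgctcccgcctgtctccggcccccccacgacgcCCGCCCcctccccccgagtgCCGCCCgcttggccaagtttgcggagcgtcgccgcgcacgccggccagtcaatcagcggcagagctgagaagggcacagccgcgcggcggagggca
CD44 promoter: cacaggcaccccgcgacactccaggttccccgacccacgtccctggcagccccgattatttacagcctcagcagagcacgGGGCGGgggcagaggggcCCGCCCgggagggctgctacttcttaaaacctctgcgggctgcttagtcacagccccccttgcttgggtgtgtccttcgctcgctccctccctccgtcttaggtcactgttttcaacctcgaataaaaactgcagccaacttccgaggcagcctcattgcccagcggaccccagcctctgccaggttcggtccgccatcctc
CD24 promoter: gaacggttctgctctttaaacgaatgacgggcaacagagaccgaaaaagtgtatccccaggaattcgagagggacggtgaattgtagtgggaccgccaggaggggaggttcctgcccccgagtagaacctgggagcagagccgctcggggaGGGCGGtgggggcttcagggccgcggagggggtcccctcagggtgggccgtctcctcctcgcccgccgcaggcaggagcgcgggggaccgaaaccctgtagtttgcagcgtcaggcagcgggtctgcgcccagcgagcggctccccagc
CD9 promoter: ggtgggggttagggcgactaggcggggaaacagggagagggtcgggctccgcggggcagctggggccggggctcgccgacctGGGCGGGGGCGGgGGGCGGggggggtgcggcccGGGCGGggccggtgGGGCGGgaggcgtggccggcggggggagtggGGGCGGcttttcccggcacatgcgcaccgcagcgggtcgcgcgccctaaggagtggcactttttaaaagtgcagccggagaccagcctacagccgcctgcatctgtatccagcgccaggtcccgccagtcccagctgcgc
The GC box occurred on either strand in 11 of the 18 windows, and in 45.0% of all 35116 windows of that length. It was found 2 times in the GPC4 window, 2 times in that of CD44, 1 time in that of CD24 and 6 times in that of CD9, where the first and second match adjoin. The octamer ATGCAAAT, the motif of POU factors, was in 0 of the 18 windows and in 1.77% of all windows. TATAAA was in 2 of the 18 windows, 1 each of ALPL and ITGA6, beside 11.5% of all windows, and CACGTG in 2 of the 18 beside 7.26%. The CD9 window was chosen for its matches, so its count is no comparison with the other windows. CD9 windows 1 and 4 and CD24 window 2, not shown, held 0 GC boxes. The median GC content of all 35116 windows was 58.7%. The windows shown had 74.7% (GPC4), 63.3% (CD44), 66.7% (CD24) and 75.7% (CD9), and the part of GC content in these counts was not tested. The ITGA6 windows overlap, and 1 match was counted in both. Windows 1 and 2 of CD24 and windows 1 and 2 of PROM1 also overlap, with no match in the shared bases. These matches describe the letters in the windows, and genes with a probe in either direction held the GC box in at least 1 window.

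PODXL had 3 probes. Probe ILMN_2413158 read 9372, 9718 and 8991 in the control shRNA samples and 13083, 13141 and 14357 in the HERVH shRNA samples. All 3 HERVH shRNA samples lay above all 3 control samples. The log2 change was 0.53 (SE 0.07, adjusted p = 1.82e-07, limma), a 1.45-fold rise. Probe ILMN_1711311 read 1039, 1074 and 1007 with control shRNA and 1975, 1705 and 1848 with HERVH shRNA, again without overlap. Its log2 change was larger, at 0.82 (SE 0.07, adjusted p = 3.87e-13, limma). Within each array the log2 ratio of ILMN_1711311 to ILMN_2413158 moved from -3.17 ± 0.01 (SD) to -2.88 ± 0.13, and the groups did not overlap (two-sided exact permutation p = 0.1, the smallest that 3 against 3 samples allow). Probe ILMN_2297511 lay between 44.3 and 56.8 in all 6 samples, below the array medians, and its groups overlapped. Its log2 change of 0.11 had an adjusted p of 0.503 in limma and a 95% confidence interval from -0.09 to 0.31. The rise of PODXL was thus read by 2 of its 3 probes.

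GPC4 encodes glypican 4, a heparan sulfate proteoglycan held in the membrane by a GPI anchor, which binds growth factors of the FGF and WNT families. Its single probe, ILMN_1789502, read 3307, 3572 and 3549 with control shRNA and 6512, 6257 and 6664 with HERVH shRNA. Even the lowest HERVH shRNA sample lay far above the highest control sample. The log2 change of 0.90 (SE 0.07, 95% confidence interval 0.76 to 1.04, adjusted p = 5.99e-14, limma) is a 1.86-fold rise. The coefficient of variation between replicates was 4.22% with control shRNA and 3.17% with HERVH shRNA. ALPL, the alkaline phosphatase, is anchored to the membrane in the same way. Its probe ILMN_1701603 read 1975, 2120 and 2166 with control shRNA and 2761, 2976 and 3047 with HERVH shRNA. The groups were apart, and the log2 change was 0.49 (SE 0.07, adjusted p = 1.4e-07, limma), a 1.40-fold rise.

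PROM1 encodes prominin 1, also called CD133, a protein with several membrane spans found on cell protrusions of stem and epithelial cells. Its single probe, ILMN_1786720, read 1757, 1906 and 1720 with control shRNA and 2506, 2384 and 2402 with HERVH shRNA. The groups did not overlap. The log2 change of 0.44 (SE 0.07, 95% confidence interval 0.30 to 0.57, adjusted p = 8.22e-07, limma) is a 1.36-fold rise.

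CD24, a small heavily glycosylated GPI-anchored protein, had 2 probes that did not move together. Probe ILMN_1805519 read 1336, 1379 and 1485 with control shRNA and 481, 415 and 438 with HERVH shRNA. Every HERVH shRNA sample was below every control sample, and the log2 change of -1.66 (SE 0.07, 95% confidence interval -1.79 to -1.52, adjusted p = 5.59e-22, limma) means that the signal was 3.15-fold lower. Among all 47230 probes, 119 fell by at least as much on the log2 scale, this one included. Probe ILMN_2060413 read 14349, 15857 and 14468 with control shRNA and 14870, 13462 and 14008 with HERVH shRNA. Here the groups overlapped, and the log2 change of -0.08 (SE 0.08, 95% confidence interval -0.23 to 0.08) had an adjusted p of 0.545 in limma. The log2 ratio of ILMN_1805519 to ILMN_2060413 was -3.41 ± 0.12 (SD) on the control arrays and -4.99 ± 0.04 on the HERVH shRNA arrays (two-sided exact permutation p = 0.1, the smallest that 3 against 3 samples allow). The gene table lists pseudogenes named as copies of CD24, such as CD24P2 and CD24P3. Probe sequences were not used here, and whether either probe reads another transcript was not tested.

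CD9 encodes a tetraspanin, a membrane protein that gathers integrins and other receptors into complexes. Its single probe, ILMN_1695423, read 552, 564 and 584 with control shRNA and 327, 345 and 327 with HERVH shRNA. The groups were well apart, and replicates differed little, with coefficients of variation of 2.88% and 3.00%. The log2 change was -0.77 (SE 0.07, 95% confidence interval -0.90 to -0.63, adjusted p = 1.9e-12, limma), so that the signal was 1.70-fold lower.

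CD44, the receptor for hyaluronan, had 3 probes, of which 1 was called. Probe ILMN_1803429 read 159, 158 and 159 with control shRNA and 359, 346 and 318 with HERVH shRNA. The control samples were nearly equal and all HERVH shRNA samples were above them. At a log2 change of 1.10 (SE 0.07, 95% confidence interval 0.96 to 1.25, adjusted p = 5.53e-16, limma), or 2.15-fold, this was the largest rise among the 19 probes in this fit. Probes ILMN_1778625 and ILMN_2348788 read between 62.9 and 87.2 in all samples, near the array medians. Their log2 changes were 0.16 and 0.18, with adjusted p-values of 0.242 and 0.163 in limma. The 6 values of ILMN_2348788 did not overlap between groups, at 64.4, 72.4 and 69.7 against 72.9, 74.4 and 87.2. CD44 is known for many splice forms. The part of the transcript that each probe reads is not given in the sources used here.

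ITGA6 encodes the alpha subunit of the laminin receptors that hold embryonic stem cells to Matrigel. Probe ILMN_2359287 read 209, 187 and 180 with control shRNA and 235, 275 and 221 with HERVH shRNA. The groups did not overlap, though the lowest HERVH shRNA sample lay close to the highest control sample. Its log2 change of 0.34 (SE 0.08, 95% confidence interval 0.18 to 0.51, adjusted p = 0.000639, limma) was the smallest of the 9 called changes. Probes ILMN_1687974 and ILMN_2267488 read 45.9 to 73.9 over all samples. Their log2 changes were -0.01 and 0.09, with adjusted p-values of 0.961 and 0.588 in limma, and their groups overlapped.

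NCAM1, the neural cell adhesion molecule CD56, had 4 probes and no call. Probe ILMN_1676289 read 90.0, 87.8 and 92.1 with control shRNA and 83.0, 74.7 and 78.2 with HERVH shRNA. All 3 HERVH shRNA values were below the control values, but the log2 change of -0.20 (SE 0.09) had an adjusted p of 0.0921 in limma (unadjusted p = 0.0275, the only 1 of the 4 probes below 0.05). The other 3 probes, ILMN_1702305, ILMN_1791588 and ILMN_2398184, read 45.6 to 63.7 in all samples, below the array medians. Their log2 changes were -0.01, 0.10 and 0.03, with 95% confidence intervals that lay between -0.21 and 0.30 and overlapping groups. A signal at this level does not show whether the cells held NCAM1 RNA.

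Across the 19 probes the groups did not overlap for 11, which were the 9 called probes and 1 uncalled probe each of CD44 and NCAM1. Over all probes of the array 36.6% had groups without overlap. The standard errors of the log2 changes lay between 0.07 and 0.10, and the coefficients of variation of the called probes between 0.55% and 11.5%.

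**Figure D2:**
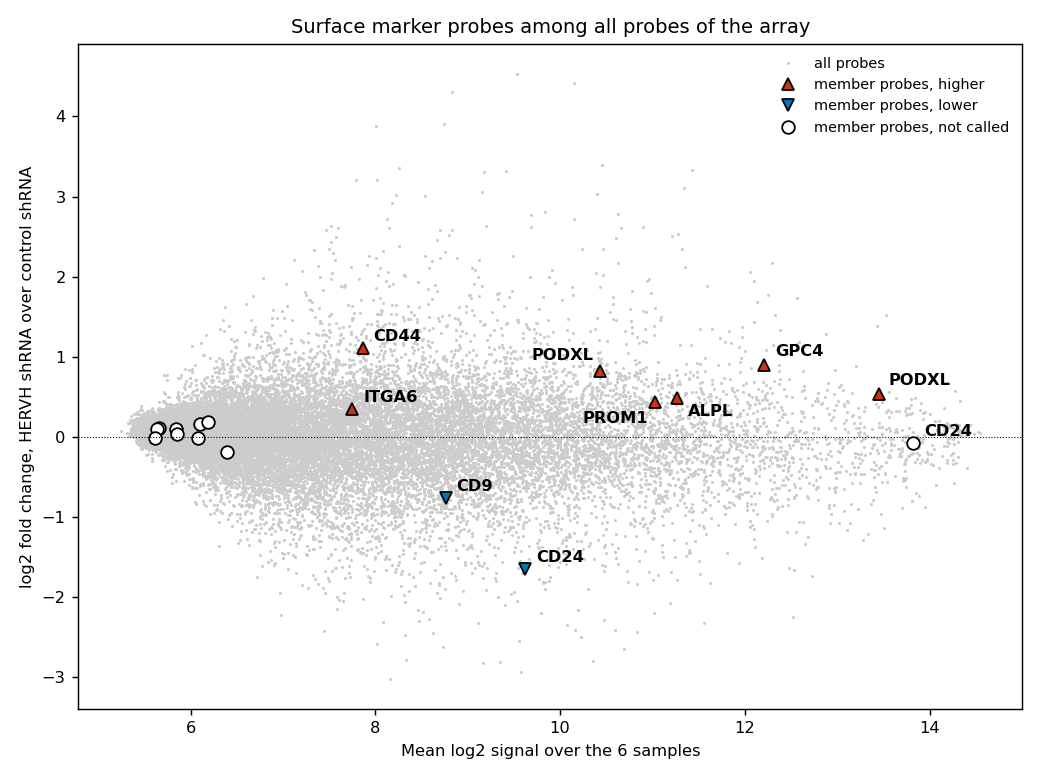
Log2 fold change of HERVH shRNA over control shRNA against the mean log2 signal of the 6 samples, for all 47230 probes (grey) and the 19 surface marker probes, with triangles pointing up for the 7 called higher, triangles pointing down for the 2 called lower and open circles for the 10 not called. The uncalled surface marker probes lie at the dim end except CD24 ILMN_2060413, which is on the far right at a change of -0.08.

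**Figure D3:**
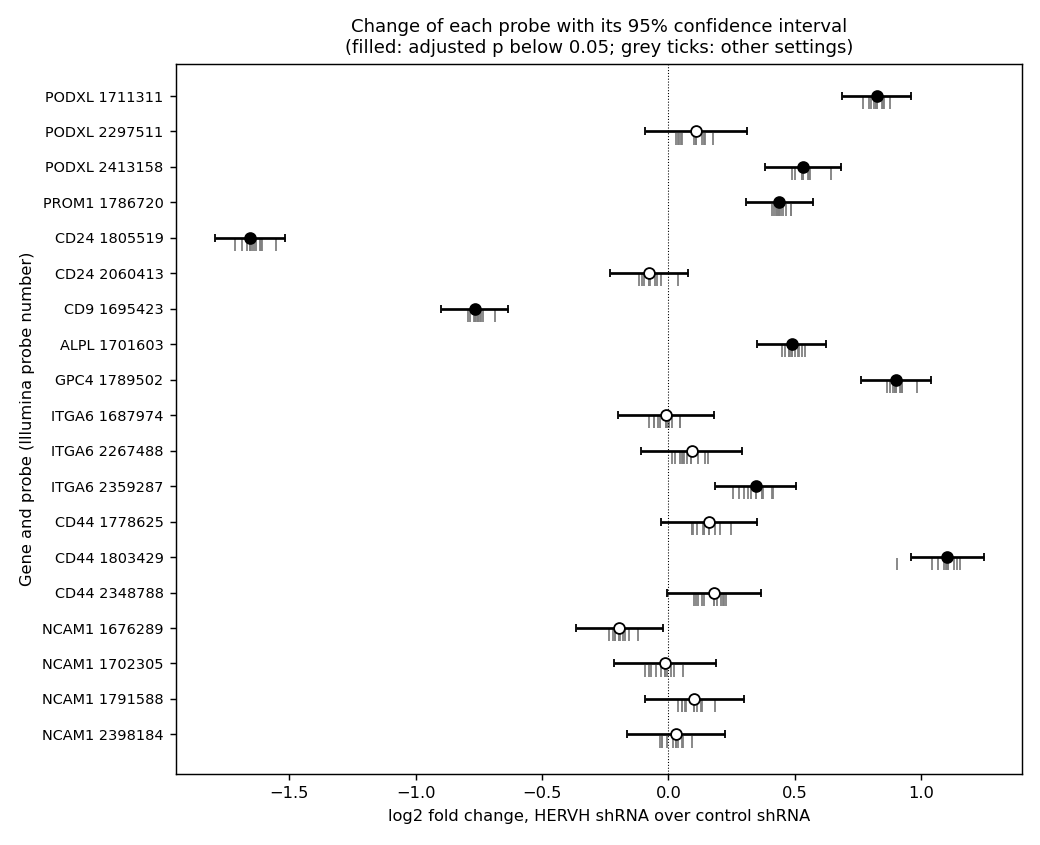
Log2 fold change of each probe with its 95% confidence interval from limma, filled where the adjusted p was below 0.05, and grey ticks for the same value under each other setting of the analysis. The intervals of the 9 called probes and of NCAM1 ILMN_1676289 do not reach 0, and the ticks of the called probes stay on the side of their main value.

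Genes that work with the surface markers moved in both directions. Of 25 partners with a probe, 10 had probes called higher, 5 lower and 3 in both directions. Of the 52 probes 46.2% were called, beside 26.6% of all probes and 48.6% of the brighter probes of the array. The median change was 0.07. The 3 with both directions were ITGB1, CD151 and LAMB1. ITGB1 is the integrin beta subunit that pairs with ITGA6. Its probe ILMN_1714820 read 1219, 1382 and 1291 with control shRNA and 474, 430 and 426 with HERVH shRNA, and its probe ILMN_1723467 read 8526, 9046 and 7753 against 10590, 11017 and 10864. The first fell by 1.55 on the log2 scale (adjusted p = 3.47e-21) and the second rose by 0.36 (adjusted p = 0.000137, both limma), and a further probe, ILMN_2383934, fell by 1.22, while 3 others were not called. ITGB1 probes thus disagreed in sign. The other partners with the smallest p-values were HAS3, which makes hyaluronan, at -1.18 (adjusted p = 3.68e-18), FGF2 at 1.28 (adjusted p = 5.69e-18), and the laminin chains LAMC1 at 0.80 (adjusted p = 7.88e-13) and LAMA1 at -0.82 (adjusted p = 2.58e-10, limma). HAS3 and FGF2 each had a second probe that was not called, at -0.22 and 0.13, and the other LAMA1 probes were called at -0.23 and not called at 0.11. For CD151, a tetraspanin bound to ITGA6, 1 probe fell by 0.72 and 2 rose, by 0.47 and 0.43.

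Among 19 paralogs of the 9 genes, 7 had a probe called higher and 0 had one called lower, with 7 of 28 probes called and a median change of 0.08. That share of called probes is close to the 26.6% of the whole array. At an unadjusted p below 0.05 in limma, 8 of these probes were higher and 1 was lower. ITGA3, another laminin-binding integrin subunit, rose by 1.22 (adjusted p = 6.5e-17) by 1 of its 2 probes. The glypicans GPC6, GPC3 and GPC1 rose by 0.99, 0.66 and 0.51. GPC2 was called at 0.18, close to the threshold (adjusted p = 0.04996, limma), and GPC5 was not called, at 0.06. The phosphatase ALPP, the placental form, rose by 0.77 (adjusted p = 4.39e-11, limma), while ALPPL2 and ALPI were not called, at 0.14 and 0.06. The closest paralogs of PODXL and PROM1 were not called: PODXL2 changed by -0.16 (adjusted p = 0.0978) and PROM2 by 0.23 (adjusted p = 0.0605, limma). CD34, also listed as a paralog of PODXL, was called higher at 0.32 by ILMN_2257587 (adjusted p = 0.0123, limma). The group means of that probe were 42.5 and 53.1, below the array medians, and the other CD34 probes were not called.

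Of 25 further genes listed with surface markers of human embryonic stem cells, 9 had a probe called higher and 6 had one called lower. Of the 35 probes 48.6% were called, as were 48.6% of the brighter probes and 26.6% of all probes of the array. The median change was 0.06. The list also held enzymes that modify carbohydrates. Of these, FUT4 and CHST2 (both 0.64) were called higher, ST3GAL2 (-0.22) was called lower and B3GALT5 was not called. CD99 rose by 1.52 (adjusted p = 1.1e-20), TMEM64 by 1.49 at 1 of its 2 probes and the tight junction protein CLDN6 by 1.11. LECT1 was lower by both probes, at -1.26 and -1.02, and the adhesion molecule EPCAM was lower at -0.95 (adjusted p = 2.61e-14, limma). Of 17 surface markers of cells that leave the undifferentiated state, 9 genes were called higher and 2 lower. Of the 25 probes 56.0% were called, beside the same 48.6% of the brighter probes and 26.6% of all probes. The median change was 0.17. CDH2, the neural and mesenchymal cadherin, rose by 1.95 (from 2234 ± 174 to 8600 ± 226, mean ± SD), NT5E by 1.65 and the chemokine receptor CXCR4 by 0.98 at 1 of its 3 probes, whereas the receptor KIT fell by 0.88 at 1 probe and 0.58 at the other. CD74 rose by 0.68 and 0.37 at 2 of its 3 probes. Without control shRNA replicate 1, or without HERVH shRNA replicate 3, 1 gene of this list was called lower.

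Markers of cell types moved in the same comparison as the surface markers. Of 11 genes of undifferentiated embryonic stem cells, 8 had a probe called lower in limma and 0 had one called higher. At an unadjusted p below 0.05 in limma, 1 probe was higher. Of the 19 probes 63.2% were called, beside 26.6% of all probes and 48.6% of the brighter probes of the array. The median change was -0.44. A gene was called higher (1 of 11) after quantile normalization, without control shRNA replicate 2 or without HERVH shRNA replicate 2. The summed signal of their probes was 48650 to 52109 in the control shRNA samples and 30122 to 32349 in the HERVH shRNA samples. POU5F1, the pluripotency factor also called OCT4, fell by 1.07 at ILMN_1705546. Its other probe, ILMN_1665632, was not called at -0.13 (adjusted p = 0.327, limma). The genes of this list with no call were SALL4, ZFP42 and TDGF1. Of 7 fibroblast and mesenchymal genes, 4 had a probe called higher in limma (COL1A1, COL1A2, COL3A1 and VIM) and 0 had one called lower. At an unadjusted p below 0.05 in limma, 0 probes of this list were lower. Of its 12 probes 6 were called, beside 26.6% of all probes and 48.6% of the brighter probes of the array. The median change was 0.29, and the summed signal was 11549 to 11741 against 25669 to 27442. The other 3 genes of the list were LUM, DCN and THY1. LUM and DCN had 0 called among 5 probes in limma (1 at an unadjusted p below 0.05), with group means between 47.2 and 76.25, and THY1 changed by 0.01.

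Neuroectoderm genes were called higher for 3 of 7 (NES, OTX2 and MAP2), with 30.8% of 13 probes called beside 26.6% of the array and a median change of 0.20. Their summed signal was 1873 to 1999 against 3762 to 4070, and most of that difference came from the single NES probe, at means of 1214 and 3080. The other 4 genes (PAX6, SOX1, NEUROD1 and ZIC1) were not called. Endoderm genes were higher for 2 of 7 and lower for 1, with 33.3% of 12 probes called, a median change of 0.12 and a summed signal of 812 to 846 against 1725 to 1766. Most of that difference came from AFP, which rose by 2.59 (means of 169.7 and 1021). Mesoderm genes were higher for 1 of 6 and lower for 1, with 22.2% of 9 probes called, a median change of 0.02 and a summed signal of 606 to 643 against 774 to 788. HAND1 alone, at means of 55.7 and 219, differed by about as much as that sum. In limma 0 genes of this list were lower without control shRNA replicate 1 or without HERVH shRNA replicate 2. Trophoblast genes were higher for 4 of 7 in limma (TFAP2A, KRT7, PGF and GATA3) and lower for 0 (0 probes at an unadjusted p below 0.05). Of their 12 probes 41.7% were called, with a median change of 0.14 and a summed signal of 779 to 838 against 1044 to 1060. Most of that difference came from TFAP2A, at means of 68.8 and 205 for ILMN_1765574 and of 48.3 and 90.4 for ILMN_2374115. The called probes of KRT7, PGF and GATA3 had group means of 58.4 to 102. Of the trophoblast genes 2 were higher without HERVH shRNA replicate 1 or 2. Blood and endothelial genes were higher for 2 of 6 in limma and lower for 0 (0 probes at an unadjusted p below 0.05), with 13.3% of 15 probes called, under the share of the array, and a summed signal of 858 to 906 against 904 to 952. The called probes, of CDH5 and CD34, had group means of 42.5 to 57.4, below the array medians. Without control shRNA replicate 2 the count of genes higher was 0, and without HERVH shRNA replicate 2 it was 1. Epithelial genes were higher for 2 of 5 and lower for 2, with 83.3% of 6 probes called and a median change of -0.31. Their summed signal was 7282 to 7697 against 6694 to 6945. The part of these cell types in the changes of PODXL, PROM1, ALPL, GPC4, CD44, ITGA6, CD24 and CD9 was not tested.

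**Figure D4:**
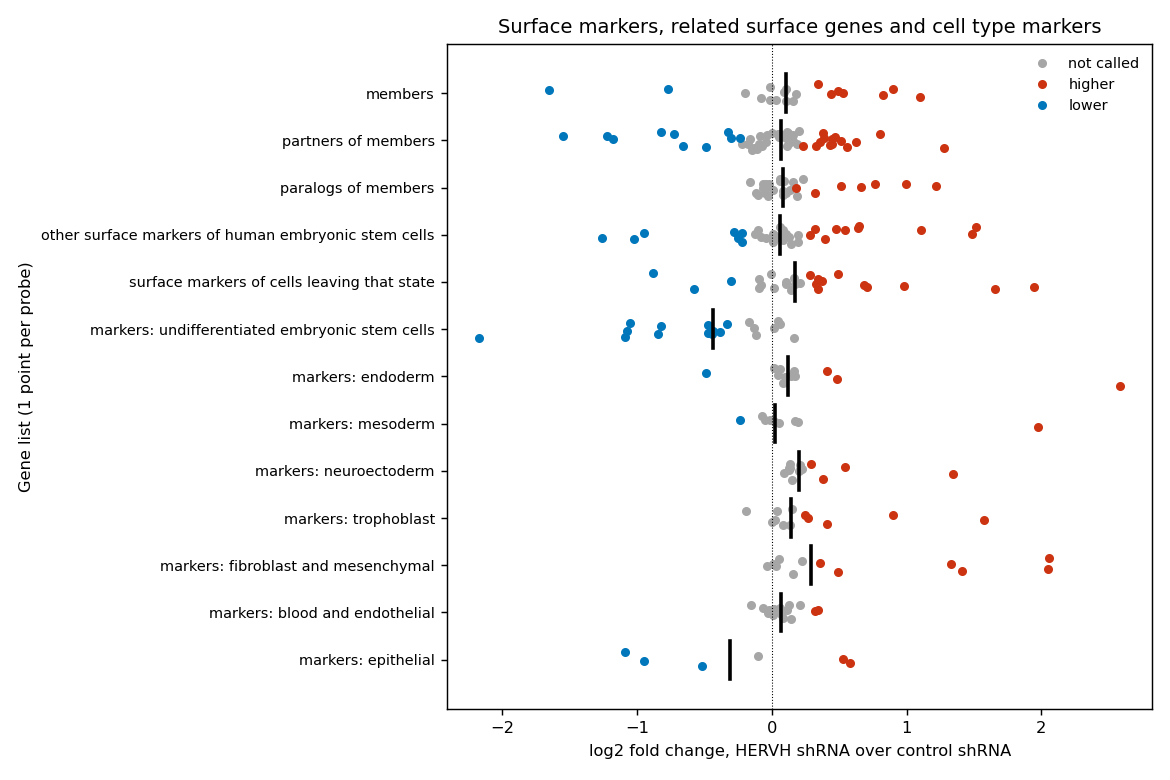
Log2 fold change of each probe of the 9 surface marker genes, of 4 lists of related genes and of 8 lists of cell type markers. Points are red where called higher, blue where called lower and grey where not called, with a black bar at the list's median. The 9 genes are in the top row (members). The surface markers spread from -1.66 to 1.10 around a median of 0.11, while the undifferentiated stem cell markers have a median of -0.44.

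Genes with the most similar pattern over the 6 samples were taken by Pearson correlation of log2 signals among called probes, as a description. The 6 points fall into the 2 groups, so values close to 1 mainly reflect the difference between the groups. GPC4 was closest to C20orf108, SIDT2 and IFFO2 (r = 0.9996 to 0.9997), and ALPL to KAT2A, HES1 and ITPR3 (r = 0.9984 to 0.9997). PROM1 was closest to MFSD11, ANKRD50 and RNF5P1 (r = 0.9991 to 0.9996). The PODXL probe ILMN_1711311 was closest to LDOC1, NIPA1 and DERA, and ILMN_2413158 to GLB1, FLJ22536 and LOC648980 (r = 0.9989 to 0.9996), with no gene shared between the 2 sets. CD44 ILMN_1803429 was closest to UBE3C, VLDLR and TFAP2C (r = 0.9993 to 0.9995). The weakest matches were those of ITGA6 ILMN_2359287, to TNFRSF10A, TOP1P2 and ZNF7 (r = 0.988 to 0.9921). Of the genes with a probe that fell, CD9 was closest to SNRPB2, CETN3 and DYNLRB1 (r = 0.9994 to 0.9997).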

How the data were processed

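RNA of 6 samples was measured on a 1-colour Illumina array. The deposited series matrix gave 1 linear intensity per probe and sample, made with GenomeStudio per the submitters' processing notes, with no version. How the values were normalized is not stated in the labels or the file header, and probe sequences were not used. No value was below 0 and the lowest was 28.9, so the deposited intensities were treated as not background subtracted, and array quantiles were close but not identical. They were used as deposited on the log2 scale. Columns were matched by sample accession. Gene names came from a second deposited table whose 12 columns of values per sample (6 of signals, 6 of detection p-values) match no sample label and were not used.

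limma 3.58.1 in R 4.3.3 (lmFit, eBayes with intensity trend) compared HERVH shRNA with control shRNA over all 47230 probes, with Benjamini-Hochberg adjustment and a threshold of 0.05. Single values were compared by exact permutation. Each probe was kept separate, and a gene counted as higher or lower if any probe passed. Arrays have no read depth, and 3 samples per group limit the precision. Every probe of the 9 genes is named. From the lists of related genes, at most the 5 called genes with the smallest p-values are named. Other genes were chosen after their values were seen: CD151, LAMB1, PODXL2, PROM2, CD34, GPC2, GPC5, ALPPL2, ALPI and the carbohydrate enzymes. So were the cell type markers given with values. Members and lists were chosen with earlier results of these data known. Listed genes absent by symbol were sought through RefSeq synonyms (GRCh38.p14). Alternatives were another normalization, offset, background correction, filter, variance model, replicate block and leaving out each sample. The genes with the pattern most like that of CD24 are not reported here.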

Additional observations from a re-analysis of the deposited data

How the results depend on the processing

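All 9 called surface marker probes kept their direction and call in each of the 14 alternatives run (126 of 126 values), and 0 of 133 recomputed values of the uncalled probes passed the threshold in limma. Near 0, 12 of those 133 uncalled values took the other sign. Quantile normalization on top gave CD24 ILMN_2060413 0.036 and NCAM1 ILMN_2398184 -0.027, which normexp background correction also put at -0.027. Scaling to the 75th percentile gave ITGA6 ILMN_1687974 0.015 and NCAM1 ILMN_1702305 0.011. Leaving out 1 sample gave ranges of -0.077 to 0.044 for ITGA6 ILMN_1687974, -0.070 to 0.058 for NCAM1 ILMN_1702305 and -0.033 to 0.094 for NCAM1 ILMN_2398184. Genes called lower among surface markers of cells leaving the undifferentiated state numbered 1 to 2, with 1 without control shRNA replicate 1 or without HERVH shRNA replicate 3, where fewer samples were fitted. In the list of further stem cell surface markers, 4 genes were called lower without control shRNA replicate 2, or without HERVH shRNA replicate 2 or 3, against 6 with all samples. Paralogs called higher numbered 6 to 8, against 7 in the main fit. Trophoblast genes called higher numbered 2 with normexp, and blood and endothelial genes 0 with the filter on dim probes, which left fewer probes tested. Otherwise the cause was not tested. The filter on dim probes left 7 surface marker probes untested.

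The labels number the replicates alike in both groups, but same-numbered samples did not deviate together (correlations 0.097, -0.013 and 0.027 over all probes), so the numbers were not taken as pairs, and not every sample correlated best with its own number. With a replicate block, 6427 probes were called higher and 6291 lower, against 6331 and 6242. Offset 50 lowered the change of CD44 ILMN_1803429 to 0.91. Signals near the array medians limit what can be said of NCAM1 and of the dim probes of PODXL, ITGA6 and CD44.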
